A study of Homo sapiens with 33 samples.

Results

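Silencing of the anaplastic lymphoma kinase (ALK) was measured in TS cells, a human line of anaplastic large cell lymphoma (ALCL), 72 h after doxycycline switched on a short hairpin RNA against ALK. The samples were chosen by their titles: 3 samples of TS cells with the A5 hairpin after 72 h with doxycycline (DOX+) and 3 samples of the same engineered cells without it (DOX-), which makes 6 of the 33 samples of the series. TS is a subclone of the ALK-positive Sup-M2 line. The cells of both groups had been transduced with a doxycycline-controlled repressor tagged with DsRed and with a GFP vector that carries the hairpin. They had all been exposed to doxycycline once before, at 1 microg/ml for 12 h, to sort double-positive cells. Cells that showed GFP without inducer were then removed by a second sort and the rest were expanded. The dose during the 72 h is not given in the sources used here. No control hairpin was sampled at 72 h, so an effect of doxycycline itself and one of the hairpin cannot be told apart at this time. For comparison, the series holds 3 DOX+ and 3 DOX- samples of TS A5 cells at 84 h, 3 DOX+ and 3 DOX- samples of Su-DHL1 cells (a second ALK-positive ALCL line) with A5 at 72 h, and 3 samples of TS cells with the mutated hairpin A5M and doxycycline at 84 h. Whether the 3 samples of a group came from separate cultures is not stated in the labels, and the p-values therefore reflect only the variation among these samples, part or all of which may be technical.

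ALK is a receptor tyrosine kinase that normal T cells do not express. In ALK-positive ALCL a chromosomal translocation joins its kinase part to another protein, usually nucleophosmin (NPM1), and the fusion kinase is constantly active. It is known to signal through STAT3, the RAS-ERK pathway, PLCG1 and PI3K-AKT, and the tumour cells depend on it for growth, while they carry activation markers such as CD30 and often lack parts of the T-cell receptor.

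Each sample's RNA was hybridised to its own HG-U133A array and read as MAS5 signal, a linear brightness per probe set scaled to a common total on every array. The 40th percentile of signal on the 6 arrays lay between 34.5 and 40.2, and values below it are low. A fold change is given as log2 of signal + 11, DOX+ over DOX-, with limma's standard error, and this scale understates the change of low genes. A gene is said to rise or fall where limma's Benjamini-Hochberg adjusted p over all 9097 genes tested was below 0.05. Arrays of 1 group correlated at r = 0.981 to 0.984 across probe sets and arrays of different groups at 0.957 to 0.962, so no array stood apart from its own group. The labelled cell type was checked on its markers. TNFRSF8 (CD30), IL2RA, GZMB, PRF1 and CD3D had mean signals of 414.7, 377, 1262, 4105 and 1344 in DOX+ cells and of 1517, 2564, 3796, 2878 and 1138 in DOX- cells. CD4, CD2, CD3E and CD3G were low in both groups, with means of 53.5, 51.6, 58.5 and 13.1 in DOX+ cells and 44.1, 44.6, 52.7 and 20.4 in DOX- cells. Higher means in DOX+ cells were those of CD247, at 37.7 against 11.1 in DOX- cells, and TRBC1, at 121 against 63.9. By its other probe sets TRBC1 had 104 and 15.7 in DOX+ cells, against 37.3 and 2.27 in DOX- cells. The 3' to 5' signal ratio of the ACTB control probe sets, which depends on RNA quality and labelling, was 1.32 ± 0.05 in DOX+ cells and 1.59 ± 0.11 in DOX- cells (SD, n = 3 each), without overlap (exact permutation p = 0.1, two-sided, the smallest that 3 against 3 allows). In Su-DHL1 cells the same ratio overlapped between the groups, at 1.29 to 1.44 in DOX+ cells and 1.36 to 1.43 in DOX- cells. In TS A5 cells at 84 h it did not overlap, at 1.25 to 1.29 in DOX+ cells and 1.48 to 1.58 in DOX- cells. A5M cells with doxycycline at 84 h had 1.44 to 1.58. The array median of signal was 62.5 ± 1.8 in DOX+ cells and 56.0 ± 1.6 in DOX- cells. Counts with the ACTB ratio as covariate are given beside the gene groups below. In bulk RNA, fewer cells of a type and less RNA per cell cannot be told apart.

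Across all genes 3108 of 9097 changed (34.2%): 1724 genes were higher (19.0%) and 1384 lower (15.2%) in DOX+ cells. Rises of 2-fold or more numbered 359 (3.95%) and falls of that size 310 (3.41%). The median log2 fold change over all genes was 0.07. The 3 DOX+ and 3 DOX- values did not overlap in 49.8% of genes (28.5% higher and 21.3% lower), and 33.5% were both called and without overlap. After adjustment for the ACTB ratio 1459 genes were called. The counts of gene groups below are read against these shares. In each group up to 4 called members were named by a rule on the size of the change; genes given below with a log2 fold change at 72 h but no standard error lie outside that rule and were chosen after their values were seen.

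The hairpin's target was measured by 2 probe sets. By 208212_s_at the ALK signal was 315, 287 and 389 in DOX+ cells, against 1818, 1806 and 1844 in DOX- cells (log2 fold change -2.44 ± 0.11, limma adjusted p = 3.32e-14). By 208211_s_at the mean was 133.8 ± 10.1 in DOX+ cells and 469.2 ± 29.4 in DOX- cells (SD, n = 3 each). Every DOX+ value was far below every DOX- value, and the mean left was 18.1% by the first probe set and 28.5% by the second. NPM1, the usual fusion partner, had signals of 4041, 3759 and 4170.0 in DOX+ cells, against 4908, 4892 and 5119.8 in DOX- cells by 200063_s_at (log2 fold change -0.32 ± 0.07, limma adjusted p = 0.00139). The NPM1 groups did not overlap, but the fall was small, and the call ended once the ACTB ratio entered as a covariate (-0.12, adjusted p = 0.557 by limma). The 2 other NPM1 probe sets fell by 0.69 and 0.63 on the log2 scale.

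Of 22 genes of the core ALK pathway 4 rose and 8 fell (median 0.00), against 19.0% and 15.2% of all genes. With the ACTB ratio as covariate 3 rose and 4 fell. Apart from ALK itself, the falls were small. MAP2K1, the ERK kinase MEK1, had signals of 399, 543 and 454 in DOX+ cells, against 803, 734 and 696 in DOX- cells (log2 fold change -0.67 ± 0.15, limma adjusted p = 0.000903). STAT3 fell as well (-0.46), as did the phosphatases PTPN2 (-0.45) and PTPN11 (-0.35) and the adaptors IRS1 (-0.43) and CRKL (-0.38). The adaptor SHC1, which links the kinase to RAS, rose by 0.64 ± 0.10. It was also called higher in A5M cells with doxycycline at 84 h, set against uninduced A5 cells (0.40). A rise of MAPK3 (1.05 ± 0.38, limma adjusted p = 0.037) stood on signals of 246, 301 and 223 in DOX+ cells, against 159, 86.0 and 117 in DOX- cells, and its sign turned in the fit that held the ACTB ratio (-0.062). Of these 22 genes 1 rose without a low-signal filter, after quantile normalization, or without any 1 of the 3 DOX+ arrays or DOX- replicate 2, and 2 rose without DOX- replicate 1. ALK itself fell 5.42-fold on this scale, and the other 21 genes, MAPK3 excepted, moved by less than 2-fold.

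The gene that rose most was S100A4, a calcium-binding protein of motile cells. Its signal (203186_s_at) was 736, 613 and 607 in DOX+ cells, against 33.3, 28.9 and 28.8 in DOX- cells (log2 fold change 3.999 ± 0.22, limma adjusted p = 1.01e-12). LAPTM5, found in the lysosomal membrane of blood cells, had 1223, 1170.4 and 1156 in DOX+ cells, against 103, 98.9 and 93.5 in DOX- cells (3.45 ± 0.12, limma adjusted p = 3.95e-16). In both genes all 3 DOX+ arrays stood close together and far above all DOX- arrays. CDA, cytidine deaminase, was near the floor without doxycycline, at 153, 154 and 102 in DOX+ cells, against 3.8, 5.2 and 2.4 in DOX- cells (log2 fold change 3.30 ± 0.30, limma adjusted p = 6.32e-09). PHLDA1, a known ERK-responsive gene, had 951, 962 and 939 in DOX+ cells, against 91.8, 106 and 90.0 in DOX- cells (3.17 ± 0.16), and GPR171, a G-protein-coupled receptor, had 152, 139.8 and 107 in DOX+ cells, against 4.8, 3.7 and 6.1 in DOX- cells (3.17 ± 0.28). CDA and GPR171 lay far below the 40th percentile in DOX- cells and above it in DOX+ cells, and PHLDA1 lay above it in both groups. The other genes among the 15 that rose most without overlap were DBNDD1 (3.35 ± 0.30), the asialoglycoprotein receptor chain ASGR2 (3.14 ± 0.20), S100P (3.12 ± 0.28), the chloride channel protein CLIC3 (3.08 ± 0.32), the actin-capping protein CAPG (3.03 ± 0.13), the integrin chain ITGB7 (3.02 ± 0.24), ENC1 (3.02 ± 0.26), the CD47-binding receptor SIRPG (2.98 ± 0.16), the surface glycoprotein CD52 (2.96 ± 0.25) and HLA-DRA (2.92 ± 0.14). Their largest limma adjusted p was 5.06e-08, that of CLIC3.

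The gene that fell most was SGK1, a kinase activated downstream of PI3K. Its signal (201739_at) was 17.5, 32.7 and 24.9 in DOX+ cells, against 559, 512 and 486 in DOX- cells (log2 fold change -3.90 ± 0.15, limma adjusted p = 3.22e-15). SERPINB4, a protease inhibitor, had 3.8, 14.8 and 2.4 in DOX+ cells, against 248, 258 and 212 in DOX- cells (-3.85 ± 0.19, limma adjusted p = 2.46e-13), so its DOX+ values were at the bottom of the scale. IL2RA, which is CD25 and part of the interleukin-2 receptor, had 394, 424 and 312 in DOX+ cells, against 2519, 2659 and 2514 in DOX- cells (log2 fold change -2.74 ± 0.12, limma adjusted p = 3.32e-14). ICOS, a T-cell costimulatory receptor, had 91.0, 122 and 108 in DOX+ cells, against 763, 747 and 730.2 in DOX- cells (-2.69 ± 0.14). The IL2RA and ICOS groups were wide apart, and both genes stayed measurable with the hairpin. UPK1B, a tetraspanin, had 697, 675 and 738 in DOX+ cells, against 5229, 3988 and 5206 in DOX- cells (-2.74 ± 0.11), and GAS1, a membrane-anchored growth arrest protein, had 386, 413 and 426 in DOX+ cells, against 2720.4, 2652 and 2815 in DOX- cells (-2.71 ± 0.07, limma adjusted p = 3.11e-18). GAS1 had the smallest standard error of the 30 leading genes, and its groups were far apart. Of the 15 genes that fell most, 6 act in the cell cycle or in DNA synthesis and repair (CDC25A, RAD54L, CDC45, MCM2, GINS2 and GINS1), and DRC9 (-2.60 ± 0.13), CALML4 (-2.58 ± 0.25) and FRY (-2.50 ± 0.20) complete the list. Other probe sets had smaller falls, of -1.53 for CALML4 and of -1.91 and -0.76 for FRY. At 84 h, TS cells with the mutated hairpin A5M and doxycycline, set against uninduced A5 cells, give the background of doxycycline and of a different transduction, and 7.0% of all genes were called in it (3.24% higher and 3.76% lower). In that comparison 10 of the 30 leading genes were called, each in the same direction as here but by less: SGK1 (-1.57), S100A4 (1.05), S100P (1.04), DRC9 (-0.99), HLA-DRA (0.92), FRY (-0.90), GAS1 (-0.89), IL2RA (-0.59), ICOS (-0.47) and MCM2 (-0.44). The part of doxycycline in their response at 72 h was not tested.

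**Figure D1:**
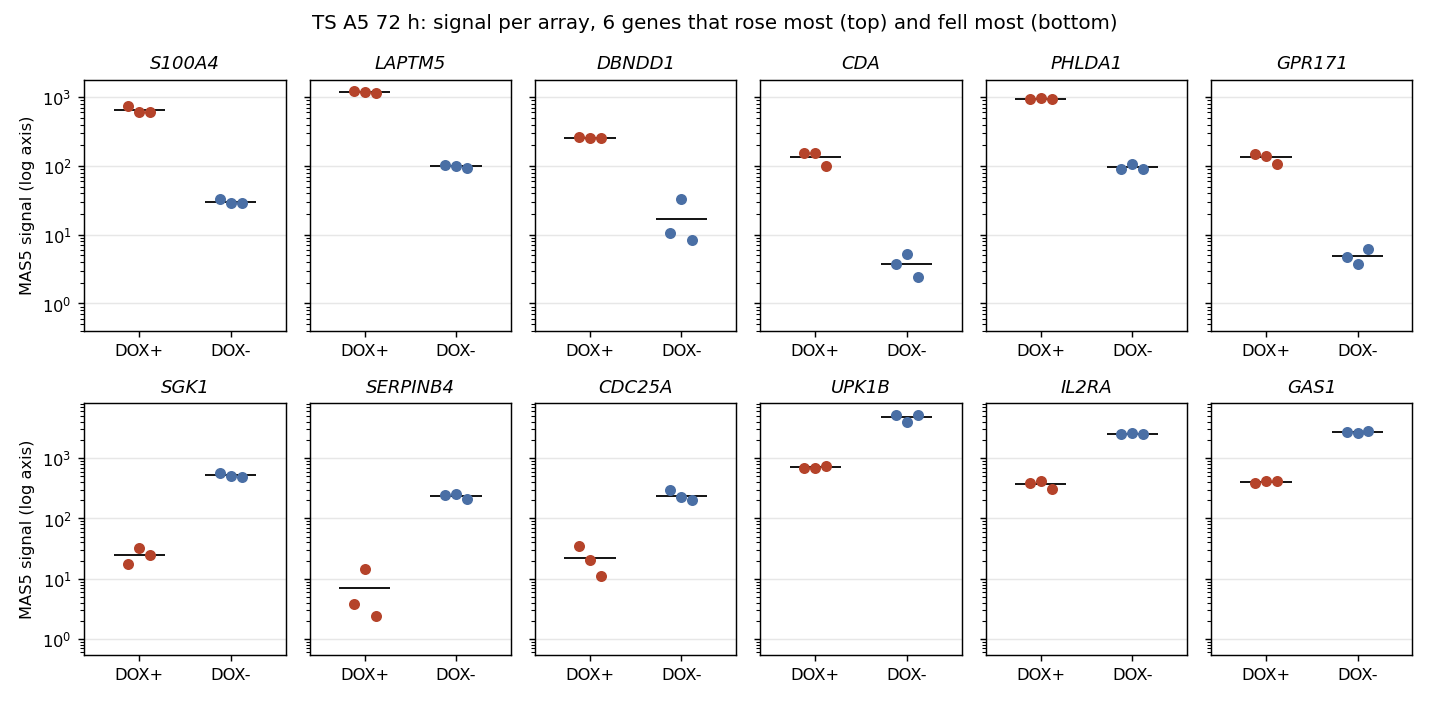
MAS5 signal (log axis) on each of the 3 DOX+ and 3 DOX- arrays of TS A5 cells at 72 h for the 6 genes that rose most (top row) and the 6 that fell most (bottom row) without overlap; points are arrays and horizontal lines are group means. S100A4 lies between 607 and 736 in DOX+ cells and between 28.8 and 33.3 in DOX- cells, and SGK1 between 17.5 and 32.7 in DOX+ cells and between 486 and 559 in DOX- cells.

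DNA replication had the lowest median of the 35 gene groups. Before S phase the origin recognition complex, CDC6 and CDT1 load the MCM2-7 helicase onto DNA, and CDC45 and the GINS complex then turn it into the moving helicase that the polymerases follow. Many of these genes are known targets of E2F transcription factors. Of the 45 genes of replication licensing and the fork, 42 fell and 0 rose (0 also at an unadjusted p below 0.05), with a median of -1.25 beside 0.07 over all genes, and 27 fell at least 2-fold. The 3 members that were not called were PRIM2 (-0.35), ORC5 (-0.14) and ORC2 (-0.06). With the ACTB ratio as covariate 34 of the 45 fell, and the part of RNA quality was not tested. In Su-DHL1 cells 33 fell, against 10.7% of all genes called lower there. In A5M cells with doxycycline at 84 h 7 of the 45 were called lower and 0 higher (median -0.15).

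Promoters of 4 genes are shown with the letters of known motifs, 2 of them here because MCM2 and GINS1 have the smallest standard errors of the 4 replication genes among the 15 lowest. Each is 300 bases long, from RefSeq on GRCh38.p14, from 250 bases before to 50 bases after the annotated start and written 5′ to 3′ on the gene's strand, with E2F letters in capitals. MCM2 lies on the plus strand at chr3:127598161-127598460 and GINS1 on the plus strand at chr20:25407423-25407722.
MCM2: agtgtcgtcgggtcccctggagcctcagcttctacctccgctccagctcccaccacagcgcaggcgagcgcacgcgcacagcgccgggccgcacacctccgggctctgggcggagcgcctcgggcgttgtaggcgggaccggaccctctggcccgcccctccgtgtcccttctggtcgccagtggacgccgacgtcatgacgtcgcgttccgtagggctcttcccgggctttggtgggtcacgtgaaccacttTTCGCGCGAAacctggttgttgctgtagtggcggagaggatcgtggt
GINS1: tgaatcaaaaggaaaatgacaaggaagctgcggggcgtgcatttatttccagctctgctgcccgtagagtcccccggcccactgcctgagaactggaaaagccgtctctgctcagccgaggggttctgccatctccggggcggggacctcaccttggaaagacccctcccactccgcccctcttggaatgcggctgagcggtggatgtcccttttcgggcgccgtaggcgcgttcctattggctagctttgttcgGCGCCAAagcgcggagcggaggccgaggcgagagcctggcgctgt

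E2F letters were searched on both strands in 4 forms. The first form was TTCCCGC, the second form was TTGGCGC, the third form was TTCGCGC and the last form was TTGCCGC. In MCM2 2 matches that overlap, 1 per strand, began 3 and 6 bases after the start, and in GINS1 1 match began 5 bases after it. Such letters stood in 27 of 39 replication promoters that had an entry (69.2%) and in 17 of 25 DNA repair promoters (68%). They stood in 19 of 52 mitosis promoters (36.5%) and in 3 of 19 promoters of deoxynucleotide synthesis (15.8%), a list in which 20 of 21 genes fell, against 20.3% of the 7461 promoters of genes tested and 13.1% of all 27305. A match is a description of the sequence and says nothing of what binds there in these cells.

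MCM2, a subunit of the helicase, had signals of 272, 286 and 284 in DOX+ cells, against 1745, 1553 and 1958 in DOX- cells (log2 fold change -2.59 ± 0.09, limma adjusted p = 1.04e-15). GINS1 had 80.6, 86.1 and 97.5 in DOX+ cells, against 566, 559.5 and 463 in DOX- cells (-2.45 ± 0.12), and GINS2 had 104, 79.9 and 96.4 in DOX+ cells, against 514, 512 and 681 in DOX- cells (-2.47 ± 0.26). In all 3 genes every DOX+ array was several-fold below every DOX- array. CDC45, which joins the helicase with GINS, had 3.9, 19.7 and 27.7 in DOX+ cells, against 159, 135 and 165 in DOX- cells (-2.65 ± 0.35, limma adjusted p = 1.88e-06), so its DOX+ values reached the low range. The other members that fell spanned -2.21 (MCM5) to -0.51 (RPA1, a single-strand binding protein), and MCM10 (-2.05), the clamp PCNA (-1.64), the loader subunit RFC4 (-1.78) and the polymerase subunit POLE2 (-1.55) lay between them.

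Genes that make or repair DNA fell as well. Of 21 genes of deoxynucleotide synthesis 20 fell (median -0.82). RRM2, the regulated subunit of ribonucleotide reductase, had 1662, 1622 and 1893 in DOX+ cells, against 5171, 5043 and 5357 in DOX- cells (log2 fold change -1.59 ± 0.09, limma adjusted p = 3.91e-12), and TYMS, thymidylate synthase, had 2137, 2013 and 1856 in DOX+ cells, against 4819.6, 4808 and 4272 in DOX- cells (-1.21 ± 0.14). Both remained abundant with the hairpin although no values overlapped. TK1 (-1.06 ± 0.13) and DTYMK (-1.05 ± 0.16), kinases that make thymidine nucleotides, fell by about 2-fold. Of 28 DNA repair genes 21 fell and 0 rose (median -0.82), led by the recombination factors RAD54L (-2.69 ± 0.27) and RAD51AP1 (-2.10 ± 0.18), the exonuclease EXO1 (-1.89 ± 0.16) and BARD1, the partner of BRCA1 (-1.68 ± 0.15). At an unadjusted p below 0.05 the test had 1 repair gene and 0 nucleotide genes higher. After adjustment for the ACTB ratio 16 of the 21 nucleotide genes and 16 of the 28 repair genes fell.

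Among 22 regulators of the step from G1 to S phase 12 fell and 1 rose (median -0.50), and 8 fell and 0 rose with the ACTB ratio as covariate. CDC25A, the phosphatase that activates CDK2, had 35.1, 20.2 and 11.2 in DOX+ cells, against 291, 223 and 202 in DOX- cells (log2 fold change -2.96 ± 0.24, limma adjusted p = 6.31e-10). CCNE2, a cyclin of CDK2, had 21.5, 20.5 and 25.3 in DOX+ cells, against 104, 130.3 and 62.6 in DOX- cells (-1.67 ± 0.22), and E2F8 had 28.9, 39.4 and 32.8 in DOX+ cells, against 149, 135 and 126 in DOX- cells (-1.73 ± 0.21). All 3 were near or below the 40th percentile of signal in DOX+ cells and above it in DOX- cells. By a second probe set the log2 fold changes were smaller, at -0.81 for CDC25A and -0.64 for CCNE2. The single member that rose was RB1, the retinoblastoma protein (0.52). The cyclins D1 (CCND1, 0.10) and D2 (CCND2, 0.16) and CCNE1 (-0.25) did not pass the test. Of 6 tested inhibitors of cyclin-dependent kinases CDKN1B (p27, 0.61 ± 0.12), CDKN1A (p21, 0.53 ± 0.10) and CDKN2A (p16 and ARF, 0.48 ± 0.08) rose. CDKN1B had 454, 488 and 441 in DOX+ cells, against 309.7, 303 and 280.0 in DOX- cells. CDKN3, a phosphatase that acts on these kinases, fell (-1.02 ± 0.16). Of these 6 genes 2 rose and 0 fell after adjustment for the ACTB ratio.

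Genes of mitosis also fell at 72 h. Cyclin B with CDK1 drives entry into mitosis, kinetochore proteins tie chromosomes to the spindle, and condensin compacts them, and many of these genes are known to be repressed through a CHR element bound by the DREAM complex. Of 61 mitosis genes 57 fell and 0 rose (median -1.08). ZWINT, a kinetochore protein, had 327, 357 and 314 in DOX+ cells, against 1260.4, 1011 and 1287 in DOX- cells (log2 fold change -1.79 ± 0.12, limma adjusted p = 3.94e-11). CCNA2, cyclin A, had 145, 123 and 116 in DOX+ cells, against 455, 459 and 465 in DOX- cells (-1.77 ± 0.12), and MKI67, the Ki-67 antigen, had 205, 189.8 and 213 in DOX+ cells, against 739, 702 and 626 in DOX- cells (-1.71 ± 0.10). By these probe sets each fell more than 3-fold with no overlap. The other MKI67 probe sets had smaller log2 fold changes of -1.16, -0.60 and -0.42, and the other CCNA2 probe set had -1.41. Not called were CENPE (-0.30 ± 0.17), a kinetochore motor, and INCENP (0.03), CDC25B (0.04) and KIF18A (0.16). At an unadjusted p below 0.05 limma also had 0 of them higher. In the fit that held the ACTB ratio 49 of the 61 fell.

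**Figure D2:**
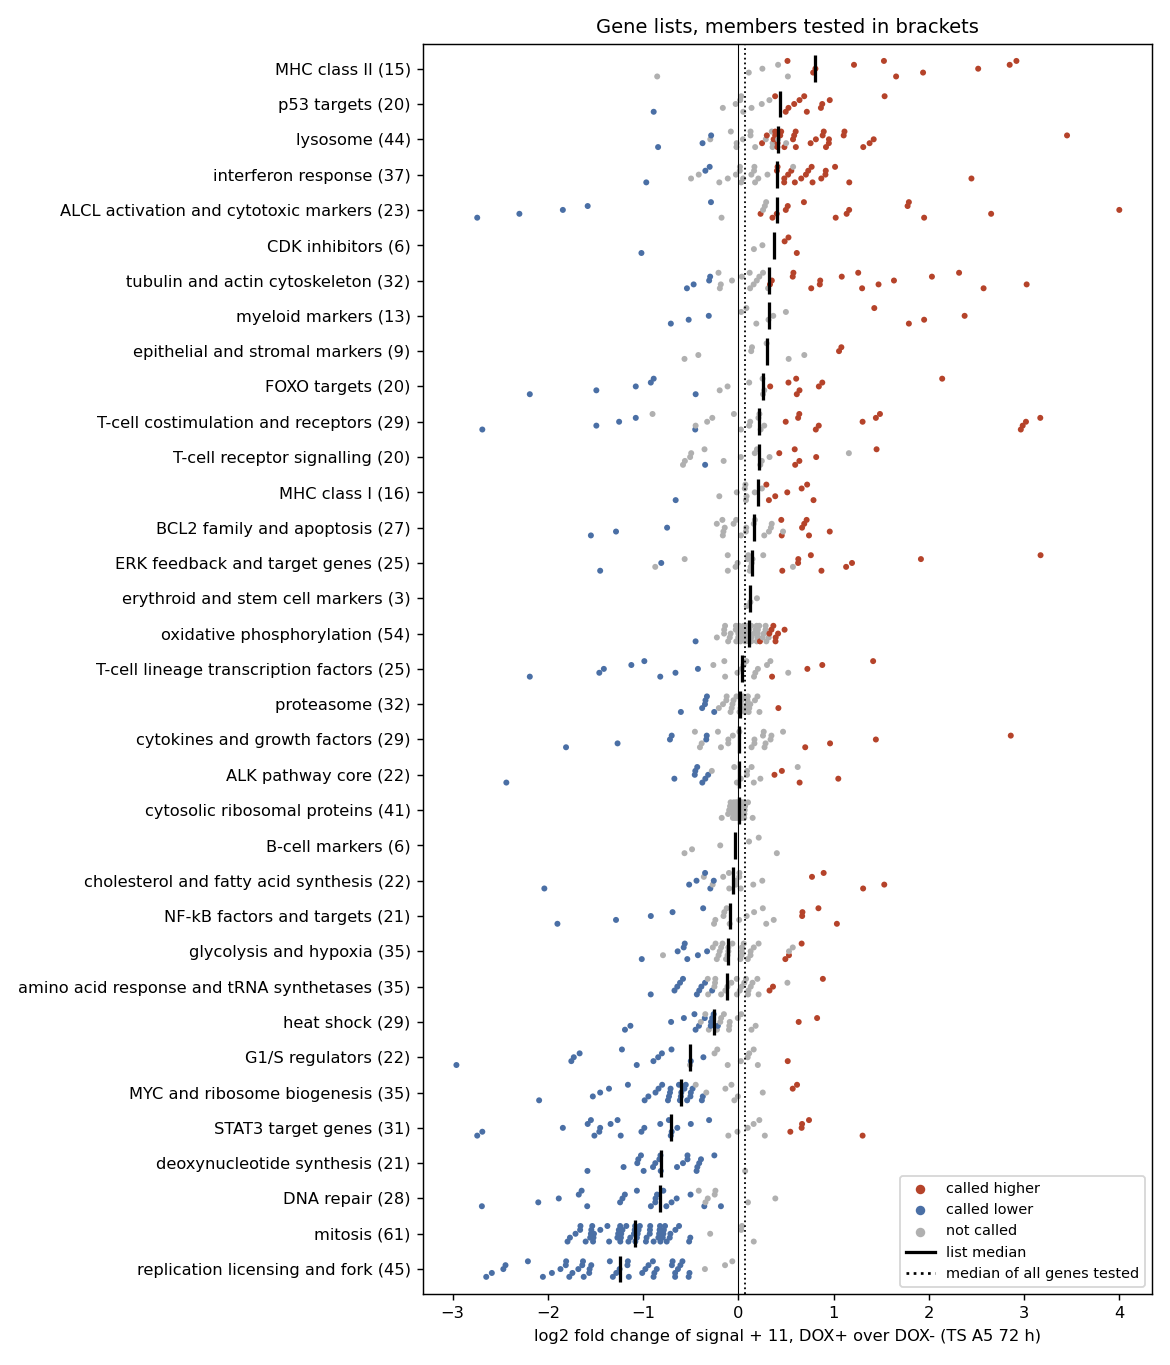
Log2 fold change (DOX+ over DOX-, TS A5 72 h) of every tested member of the 35 gene lists, sorted by list median; red points were called higher, blue points called lower and grey points not called, the thick bar is the list median and the dotted line the median of all genes tested (0.07). The replication and mitosis lists lie lowest with medians of -1.25 and -1.08, and the MHC class II list lies highest at 0.81.

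The response of the mitosis genes was tested against that of the same cells at 84 h, a comparison that shares no array with the one at 72 h. At 84 h, where 40.7% of all genes were called (21.8% higher and 18.8% lower), 58 mitosis genes fell with a median of -2.002, and 41 replication genes fell with a median of -1.63. The mean log2 level over the mitosis genes was 7.92 ± 0.01 in DOX+ cells and 8.97 ± 0.04 in DOX- cells at 72 h, and 7.05 ± 0.05 in DOX+ cells and 8.97 ± 0.09 in DOX- cells at 84 h (SD, n = 3 each). In A5M cells with doxycycline at 84 h it was 8.92 ± 0.03. The uninduced levels thus lay together at both times while the DOX+ levels lay apart. The difference between the 2 responses was called in 116 of all genes (1.28%), 89 of them with a higher value at 72 h (0.978%) and 27 with a lower one (0.297%). Of the 61 mitosis genes 35 were among the 89, and each of the 61 had a lower estimate at 84 h. Of the 45 replication genes 6 were. In all, 46 of the 89 genes belong to the 5 cell cycle lists.

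CENPM, a centromere protein, had the largest such difference. At 72 h it had 81.1, 84.9 and 101 in DOX+ cells, against 207, 235 and 229 in DOX- cells (log2 fold change -1.23 ± 0.16), and at 84 h it averaged 8.83 in DOX+ cells and 237 in DOX- cells (-3.62), which is a difference of 2.39 ± 0.22 (limma adjusted p = 1.78e-06). CENPE had 99.2, 104 and 92.6 in DOX+ cells, against 138, 109 and 126 in DOX- cells at 72 h (-0.30 ± 0.17, limma adjusted p = 0.21), groups that nearly touched, and at 84 h it had fallen to 24.3 in DOX+ cells, against 152 in DOX- cells (-2.24). Its difference was 1.95 ± 0.25 (limma adjusted p = 4.91e-05). HELLS, a chromatin remodeller (2.13 ± 0.25), ERCC6L, a mitotic DNA translocase (1.62 ± 0.30), and NCAPG, a condensin subunit (1.48 ± 0.20), followed, and ZNRD2 (1.73 ± 0.44) was lost under 14 of the alternatives tried. Of the genes with a lower value at 72 h, S100A4 is one that rose at both times, with a difference of responses of -1.9997 ± 0.31 (limma adjusted p = 0.000515). Its DOX+ mean was 652 at 72 h and 1535 at 84 h. The DOX- mean was 30.3 at 72 h and 13.9 at 84 h, so both levels enter this difference. The Wnt receptor FZD1 (0.07 ± 0.16 at 72 h, 1.33 at 84 h) differed by -1.26 ± 0.23. SERPINB4 differed by -1.57 ± 0.27, with DOX+ means near the floor at both times, 7.0 at 72 h and 7.17 at 84 h, and DOX- means of 239 at 72 h and 78.8 at 84 h. A larger fall at 72 h cannot be read from this difference. PLBD1 (-2.03 ± 0.49), YKT6 (-1.19 ± 0.28) and ATP8A2 (-1.04 ± 0.24) were each lost under 8 or more alternatives.

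**Figure D3:**
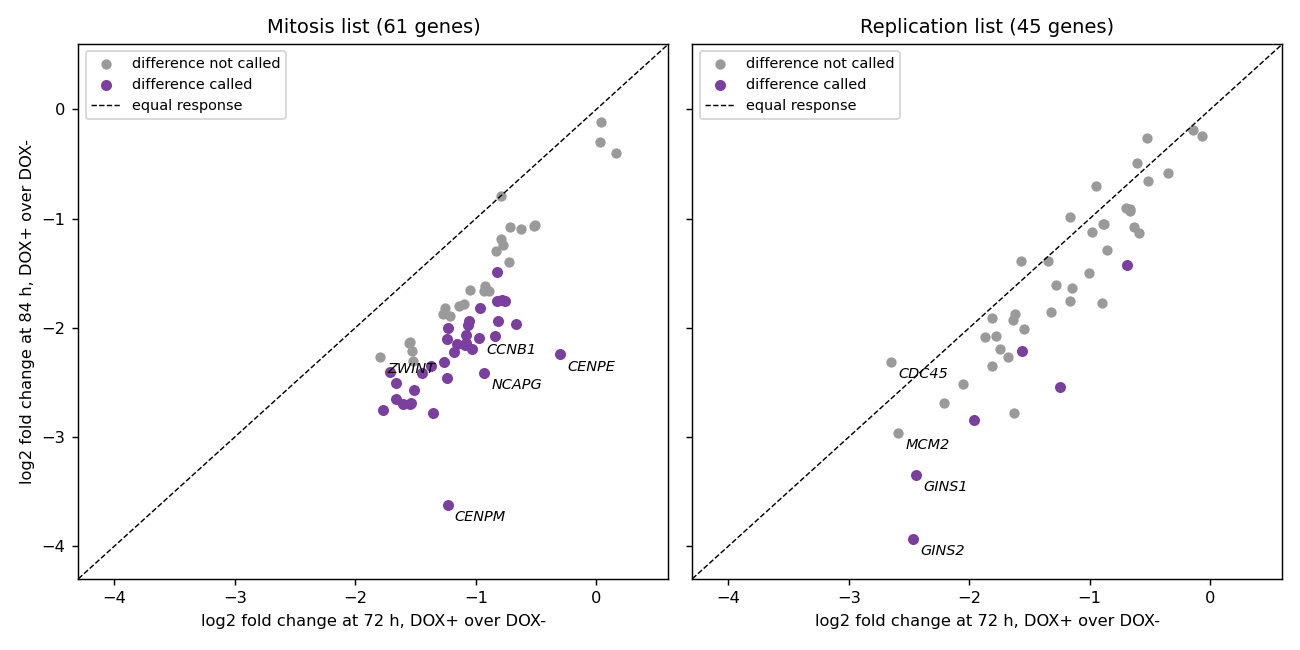
Log2 fold change (DOX+ over DOX-) in TS A5 cells at 72 h (horizontal) against 84 h (vertical) for the 61 mitosis genes (left) and the 45 replication genes (right); purple points mark genes whose difference between the times was called and the dashed line marks equal response. All 61 mitosis genes lie below the line, 35 of them called, while 6 replication genes were called.

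The promoter of NCAPG is shown because this condensin gene is among the 6 with the largest difference between the times and holds a CHR. It lies on the plus strand at chr4:17810729-17811028, with the letters TTTGAA in capitals.
NCAPG: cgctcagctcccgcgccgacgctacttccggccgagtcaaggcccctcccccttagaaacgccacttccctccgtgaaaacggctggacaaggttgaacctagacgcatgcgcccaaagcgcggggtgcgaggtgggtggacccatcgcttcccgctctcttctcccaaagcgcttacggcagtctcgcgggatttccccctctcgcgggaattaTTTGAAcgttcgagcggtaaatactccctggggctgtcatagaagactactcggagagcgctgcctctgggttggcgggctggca

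The CHR letters, TTTGAA on either strand, began 35 bases before the start of NCAPG, which also holds 2 matches to the E2F letters, left in lower case. TTTGAA stood in 34 of 52 mitosis promoters (65.4%), in 5 of 11 MHC class II promoters (45.5%) and in 1 of 39 replication promoters (2.56%). It stood in 10.4% of genes tested and 15.4% of all promoters. CCAAT on either strand stood in 39 of the 52 mitosis promoters (75%), against 37.4% of genes tested. The 34 mitosis genes with TTTGAA had a median of -1.12 at 72 h and -2.07 at 84 h, and the 18 without it -0.95 and -1.96, and the difference between the times was called in 18 of the 34 and in 10 of the 18. These values are a description with no test.

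STAT3 is the transcription factor through which the fusion kinase is known to keep ALCL cells in their activated state. Of 31 STAT3 target genes 20 fell and 5 rose (median -0.71), and with the ACTB ratio as covariate 13 fell and 2 rose. Besides IL2RA and ICOS, TNFRSF8, which encodes CD30, had 393, 433 and 419 in DOX+ cells, against 1496, 1596 and 1458 in DOX- cells (log2 fold change -1.84 ± 0.09, limma adjusted p = 1.23e-13). GZMB, granzyme B, had 1153, 1217 and 1415 in DOX+ cells, against 3489, 3829 and 4069 in DOX- cells (-1.58 ± 0.09). Both groups of values were wide apart. Feedback inhibitors and kinases on the list fell too, with SOCS3 at -1.51, SOCS1 at -0.71 and PIM1 at -1.24, as did the factors BATF3 (-1.46 ± 0.10), JUNB (-1.02) and IRF4 (-0.99). The 5 members that rose were IL21R (1.30), the survival genes BCL2L1 (0.74) and MCL1 (0.67), HIF1A (0.66 ± 0.11) and OSMR (0.54).

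CEBPB, a leucine zipper transcription factor that the fusion kinase is known to induce, had signals of 2181, 2691 and 2491 in DOX+ cells, against 4078, 3651 and 3749 in DOX- cells (log2 fold change -0.64 ± 0.09, limma adjusted p = 8.08e-06). BCL2A1, a BCL2 relative that blocks apoptosis, had 704, 807 and 748 in DOX+ cells, against 1903, 1838 and 1806 in DOX- cells (log2 fold change -1.29 ± 0.11, limma adjusted p = 3.81e-09). No DOX+ value of either gene reached a DOX- value. Both genes had been selected by the study from samples of this series and are not independent evidence of their direction.

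ALCL is recognised by activation and cytotoxic proteins, and these moved both ways. Of 23 such markers 14 rose and 5 fell (median 0.40), against 19.0% and 15.2% of all genes. With the ACTB ratio as covariate 10 rose and 4 fell. IL2RA, TNFRSF8 and GZMB fell, and FCGR2A, an Fc receptor, fell to 5.1, 9.2 and 1.3 in DOX+ cells, against 64.4, 69.2 and 68.0 in DOX- cells (-2.30 ± 0.20). S100A6, a further calcium-binding protein, rose, with 5032, 4525 and 4766 in DOX+ cells, against 744, 629.9 and 896 in DOX- cells (log2 fold change 2.65 ± 0.12, limma adjusted p = 8.7e-14). Its 2 groups were several-fold apart. Of the other granule genes, perforin (PRF1, 0.52) and GZMA (1.02) rose. CD58, a ligand of CD2 (1.78), and LGALS1, galectin-1 (1.16), likewise rose.

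Targets of ERK signalling split. Of 25 genes 9 rose and 2 fell (median 0.14), against 19.0% and 15.2% of all genes. With the ACTB ratio as covariate 5 rose and 1 fell. MYC, which is on 3 of the lists, had 402, 409.9 and 429 in DOX+ cells, against 1182, 1223 and 1051 in DOX- cells (log2 fold change -1.45 ± 0.09, limma adjusted p = 1.56e-11). SPRY4, an inhibitor of receptor kinase signalling, had 653, 663 and 629.8 in DOX+ cells, against 177, 165 and 150.3 in DOX- cells (log2 fold change 1.92 ± 0.11, limma adjusted p = 1.51e-12), and DUSP6, an ERK phosphatase, had 688, 587 and 613 in DOX+ cells, against 287, 253 and 266 in DOX- cells (1.19 ± 0.15). MYC fell 2.74-fold on this scale, while the feedback inhibitors SPRY4, DUSP6, DUSP4 (1.13 ± 0.24) and DUSP5 (0.63) rose. The early genes FOS (-0.56), JUN (-0.01) and EGR1 (0.12) did not pass the test. Of 20 FOXO targets, genes that PI3K-AKT signalling keeps low, 8 rose and 6 fell (median 0.26). TXNIP, a thioredoxin inhibitor, had 1209, 1155 and 1173 in DOX+ cells, against 286, 276 and 221 in DOX- cells (2.14 ± 0.12). LEF1, a T-cell transcription factor, had 107, 112 and 100.3 in DOX+ cells, against 541, 598 and 448 in DOX- cells (-2.19 ± 0.14), and S1PR1, a receptor for egress from lymph nodes, fell (-1.49 ± 0.22). After adjustment for the ACTB ratio 2 of the FOXO targets rose and 4 fell, and in the A5M comparison at 84 h 0 were called higher and 6 lower.

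MYC is known to drive genes that make ribosomes. Of 35 genes of MYC and ribosome production 26 fell and 2 rose (median -0.60). MRTO4, a ribosome assembly factor, had 221, 246 and 206 in DOX+ cells, against 622, 638 and 746 in DOX- cells (log2 fold change -1.53 ± 0.19, limma adjusted p = 9.76e-07), and RRP9, a small nucleolar RNP protein, had 44.0, 75.5 and 76.7 in DOX+ cells, against 204, 153 and 188 in DOX- cells (-1.36 ± 0.20). MXD3, a MAX partner, had 19.9, 17.1 and 18.1 in DOX+ cells, against 145, 101 and 101 in DOX- cells (-2.09 ± 0.20). In all 3 genes the groups were well apart. Of 41 cytosolic ribosomal protein genes limma called 0 (0 also at an unadjusted p below 0.05, and 1 higher and 1 lower after quantile normalization), with a median of 0.00. RPL3 (-0.18 ± 0.10) and RPL11 (0.15 ± 0.10) had the largest changes among them. In the fit that held the ACTB ratio 17 of the 35 MYC list genes fell.

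MHC class II had the highest median of the 35 gene groups. Class II molecules, pairs of alpha and beta chains guided by the invariant chain CD74 and loaded by HLA-DM, present peptides to helper T cells, and activated human T cells carry them. The factors RFX and CIITA are known to switch these genes on from an X box in the promoter. Of 15 class II genes 10 rose and 0 fell (median 0.81), and with the ACTB ratio as covariate 8 rose. At an unadjusted p below 0.05 limma had 1 of them lower. HLA-DRA had 1867, 1859.6 and 1879 in DOX+ cells, against 237, 272 and 208 in DOX- cells (log2 fold change 2.92 ± 0.14, limma adjusted p = 1.78e-13), CD74 had 743, 807 and 702 in DOX+ cells, against 87.8, 93.3 and 103 in DOX- cells (2.85 ± 0.17), and HLA-DPA1 had 2194, 2186 and 2149.6 in DOX+ cells, against 607, 534 and 540.4 in DOX- cells (1.94 ± 0.10). HLA-DRB1 had 1213, 1006 and 938 in DOX+ cells, against 188, 185 and 150.2 in DOX- cells (2.52 ± 0.14). In each the 3 DOX+ values were close together and well above DOX-. The peptide loader chains HLA-DMA (1.66) and HLA-DMB (0.81) rose, while the activator CIITA (0.25) did not pass the test and RFX5 (0.51) and RFXANK (0.78) rose, and RFXAP (-0.85) did not pass. HLA probe sets may match several of these related genes. In the A5M comparison at 84 h 5 of the 15 were called higher and 1 lower, with HLA-DRB1 at 1.02 and CD74 at 0.65, and the part of doxycycline at 72 h was not tested.

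The HLA-DRB1 promoter is shown because it is the class II beta chain with the largest rise and its promoter holds X box letters. It lies on the minus strand at chr6:32589799-32590098, with X box letters AGCAACN and CCAAT, on either strand, in capitals.
HLA-DRB1: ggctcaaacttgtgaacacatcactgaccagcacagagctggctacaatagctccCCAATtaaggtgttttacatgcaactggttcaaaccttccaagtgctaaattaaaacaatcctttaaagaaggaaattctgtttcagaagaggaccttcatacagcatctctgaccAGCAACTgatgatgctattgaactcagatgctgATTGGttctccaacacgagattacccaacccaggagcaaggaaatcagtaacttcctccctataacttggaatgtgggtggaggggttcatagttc

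The X box letters began 79 bases before the start and the nearer CCAAT match 46 bases before it, and a further CCAAT match lay 195 bases before it. X box letters stood in 4 of 11 class II promoters (36.4%), against 12% of genes tested and 13% of all promoters. TTTGAA stood in 5 of these 11 promoters (45.5%) and CCAAT in 8 (72.7%), against 10.4% and 37.4% of genes tested. The HLA-DRB1 promoter also holds 1 match to TTTGAA, left in lower case. The MCM2 promoter shown above holds 1 match to the X box letters.

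**Figure D4:**
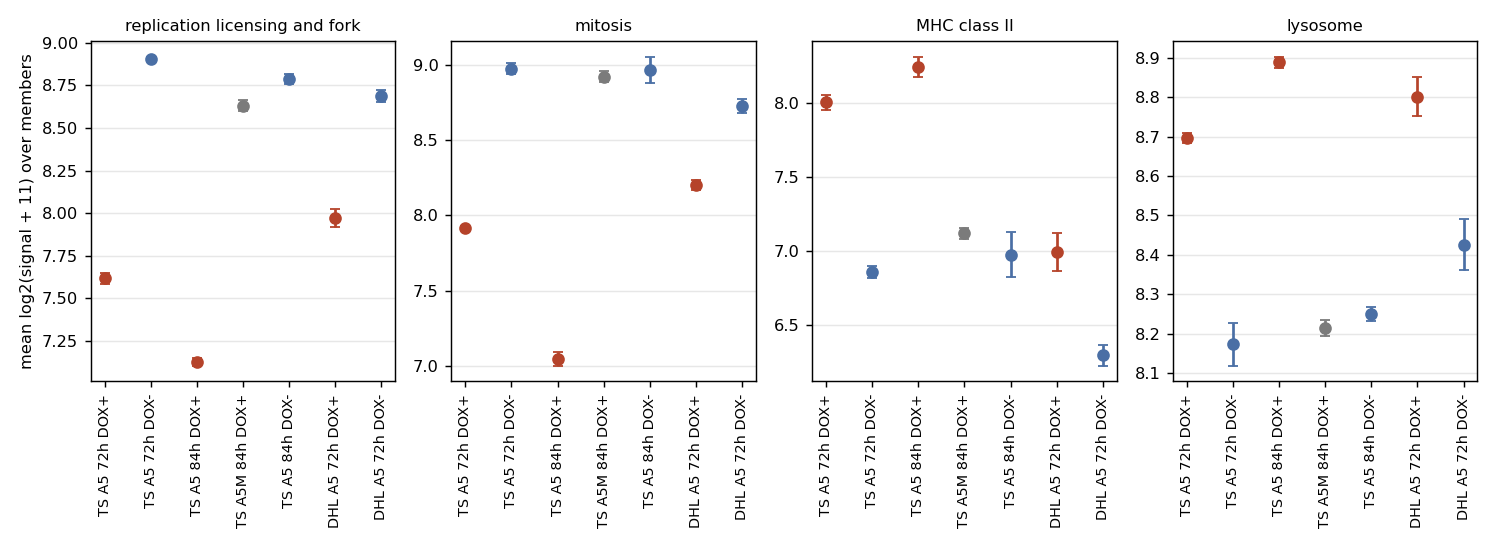
Mean of log2(signal + 11) over the tested members of 4 gene lists in each of the 7 hairpin groups; points are means over 3 arrays and bars their SD, red for the ALK hairpin with doxycycline, grey for the mutated hairpin with doxycycline and blue without doxycycline. Replication and mitosis genes are lower and MHC class II and lysosome genes higher in every red group than in its blue partner, and for mitosis the 72 h and 84 h red points lie at 7.92 and 7.05.

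Lysosomal genes rose widely, most of those that rose by less than 2-fold. Lysosomes digest cell material with acid hydrolases and a proton pump, and their genes are known targets of TFEB. Of 44 lysosomal genes 27 rose and 3 fell (median 0.41), and 15 rose after adjustment for the ACTB ratio. Rises of 2-fold or more numbered 6, against 3.95% of all genes, and LAPTM5, given above, had the largest (3.45 ± 0.12). CTSD, cathepsin D, had 112, 171 and 118 in DOX+ cells, against 52.3, 45.5 and 31.2 in DOX- cells (log2 fold change 1.42 ± 0.22, limma adjusted p = 1.31e-05), SMPD1, acid sphingomyelinase, had 134, 177 and 152 in DOX+ cells, against 63.5, 40.5 and 54.9 in DOX- cells (1.38 ± 0.20), and ATP6AP1, a proton pump subunit, had 898, 1059.7 and 741 in DOX+ cells, against 365, 359 and 334 in DOX- cells (1.31 ± 0.11). Every DOX+ value lay above every DOX- value in these genes. Cathepsins L (-0.84, CTSL) and B (-0.38, CTSB) fell. Without DOX- replicate 3 the number that fell was 1.

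Genes of the interferon response rose in 18 of 37 cases and fell in 3 (median 0.40), and 9 rose in the fit that held the ACTB ratio. IFIT1, which binds foreign RNA, had 74.0, 72.5 and 81.7 in DOX+ cells, against 4.3, 6.7 and 4.0 in DOX- cells (log2 fold change 2.45 ± 0.27, limma adjusted p = 1.11e-07). TRIM22, an antiviral ligase, had 279, 304 and 268 in DOX+ cells, against 124, 138 and 143 in DOX- cells (1.01 ± 0.20). IFIT1 was close to the floor without doxycycline and TRIM22 was not. PLSCR1, a scramblase, fell (-0.97 ± 0.08), and MX1 (0.17), OAS1 (0.21) and IFI27 (-0.50) did not pass the test. Of the 37 genes 1 fell without DOX+ replicate 1 or 2 or DOX- replicate 3. Of 16 genes of MHC class I 7 rose and 1 fell (median 0.21), against 2 and 1 with the ACTB ratio as covariate. HLA-B (0.79 ± 0.09) rose, and the immunoproteasome subunit PSMB8 (-0.66 ± 0.12) fell. TAP1 passed (0.66 ± 0.23, limma adjusted p = 0.0258), but its DOX+ values of 409, 181 and 246 differed among themselves, and it had 0.36 (limma adjusted p = 0.244) without DOX+ replicate 1. The count of class I genes that rose was 3 without DOX+ replicate 1, and 4 without DOX- replicate 2 or 3.

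Genes of the T-cell surface were called in both directions. Of 29 receptors and costimulatory genes 12 rose and 5 fell (median 0.22), against 19.0% and 15.2% of all genes. The falls thus lay near the share over all genes. With the ACTB ratio as covariate 10 rose and 4 fell. ITGB7, whose protein helps lymphocytes home to the gut, had 109.7, 147 and 89.7 in DOX+ cells, against 3.3, 4.8 and 5.0 in DOX- cells (log2 fold change 3.02 ± 0.24, limma adjusted p = 5.54e-10), SIRPG had 552, 537 and 495 in DOX+ cells, against 58.0, 57.2 and 56.0 in DOX- cells (2.98 ± 0.16), and CD52 had 115, 119 and 162 in DOX+ cells, against 6.6, 7.9 and 6.9 in DOX- cells (2.96 ± 0.25). ITGB7 and CD52 were below 10 in signal on every DOX- array. CD70, the ligand of CD27, rose with 506, 518 and 464 in DOX+ cells, against 212, 188 and 135 in DOX- cells (1.44 ± 0.13). ICOS, S1PR1 and CCR7, a receptor for homing to lymph nodes (-1.08 ± 0.14), fell. CCR7 was also lower in A5M cells at 84 h (-0.72).

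Of 20 genes of T-cell receptor signalling 6 rose and 1 fell (median 0.21), against 19.0% and 15.2% of all genes. With the ACTB ratio as covariate 3 rose and 0 fell. The adaptor SLA had 239, 311 and 262 in DOX+ cells, against 85.4, 89.4 and 100.2 in DOX- cells (log2 fold change 1.45 ± 0.17, limma adjusted p = 4.81e-07), and the phosphatase CD45 (PTPRC) had 878, 952 and 834 in DOX+ cells, against 557, 616 and 579 in DOX- cells (0.60 ± 0.16). The kinase FYN (0.64 ± 0.16) and the receptor constant gene TRBC1 (0.82 ± 0.18) also rose. CD3D, CD3E, CD4 and CD2 did not pass the test, with log2 fold changes of 0.25, 0.19, 0.23 and 0.17. The number of signalling genes that fell was 0 without DOX+ replicate 3 or DOX- replicate 1. Of 25 lineage transcription factors 4 rose and 8 fell (median 0.03), again against 19.0% and 15.2% of all genes. With the ACTB ratio as covariate 1 rose and 6 fell. In the A5M comparison at 84 h 1 of these factors was called higher and 6 lower. BATF3 had 838, 834 and 796 in DOX+ cells, against 2262, 2495 and 2110.4 in DOX- cells (-1.46 ± 0.10) and RORA had 91.1, 70.6 and 61.0 in DOX+ cells, against 243, 208 and 193 in DOX- cells (-1.41 ± 0.17), while SATB1, a chromatin organiser of T cells, had 299, 335 and 326 in DOX+ cells, against 131, 106 and 104 in DOX- cells (1.41 ± 0.12). Both BATF3 and RORA lay below DOX- on every array, and SATB1 above it. RORA was also lower in A5M cells at 84 h (-1.21).

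Among 29 cytokine genes 4 rose and 6 fell (median 0.01), against 19.0% and 15.2% of all genes. SPP1, osteopontin, had 2754, 2741 and 2709 in DOX+ cells, against 352, 409 and 344 in DOX- cells (log2 fold change 2.86 ± 0.09, limma adjusted p = 2.78e-17). CCL20, a chemokine, had 449, 544 and 538 in DOX+ cells, against 1800.1, 1644 and 2006 in DOX- cells (-1.81 ± 0.10), and OSM, oncostatin M, had 34.1, 9.9 and 28.1 in DOX+ cells, against 74.5, 81.6 and 54.2 in DOX- cells (-1.27 ± 0.32). SPP1 rose and CCL20 fell on every array, and OSM was near or below the 40th percentile in DOX+ cells. Of 21 NF-kB genes 4 rose and 5 fell, again against 19.0% and 15.2% of all genes. They were led by the inhibitor NFKBIA (-1.90 ± 0.12) and by TNFAIP8 (1.03 ± 0.16). With the ACTB ratio as covariate 2 cytokine genes rose and 2 fell, and 1 NF-kB gene rose and 3 fell. In the A5M comparison at 84 h 6 cytokine genes and 3 NF-kB genes were called lower and 0 higher. Cytokine genes that rose numbered 2 without DOX+ replicate 1 or DOX- replicate 2, and NF-kB genes that rose numbered 2 without DOX+ replicate 1 or DOX- replicate 3.

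Among 27 genes of apoptosis 7 rose and 3 fell (median 0.16), against 19.0% and 15.2% of all genes. With the ACTB ratio as covariate 2 rose and 2 fell. BIRC5, survivin, which is also a mitosis gene, had 130.1, 138 and 176 in DOX+ cells, against 487, 448 and 418 in DOX- cells (log2 fold change -1.55 ± 0.15, limma adjusted p = 1.3e-08), and CASP4 fell as well (-0.75 ± 0.14). By its other probe sets BIRC5 had smaller log2 fold changes of -0.67 and -0.63. The death receptor FAS had 166, 223 and 209.8 in DOX+ cells, against 104, 69.9 and 123 in DOX- cells (0.96 ± 0.18), and BCL2 (0.72), BCL2L1 (0.74), MCL1 (0.67) and BAX (0.69), which lie on opposite sides of apoptosis, also rose. Of 20 p53 targets 11 rose and 1 fell (median 0.44), and 5 rose with the ACTB ratio as covariate. TP53I3 had 413, 423 and 426 in DOX+ cells, against 158, 126 and 132 in DOX- cells (1.53 ± 0.15), and ZMAT3, an RNA-binding protein, had 737, 816 and 742 in DOX+ cells, against 424, 380.3 and 428 in DOX- cells (0.88 ± 0.11). GADD45A, a stress gene, fell (-0.89 ± 0.18), and MDM2 (-0.03) did not pass the test.

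Shape and metabolism genes moved less uniformly. Of 32 cytoskeletal genes 16 rose and 4 fell (median 0.32), with TUBA1A, an alpha tubulin, at 2352, 2354 and 2365 in DOX+ cells, against 393, 465 and 316 in DOX- cells (log2 fold change 2.57 ± 0.15, limma adjusted p = 2.62e-12), and CORO1A, an actin-binding protein of leukocytes (2.32 ± 0.24), and MYH9, a non-muscle myosin (2.03 ± 0.11), next to it. The 3 TUBA1A signals in DOX+ cells lay close together and far above those in DOX- cells. Of 29 heat shock genes 13 fell and 2 rose (median -0.26), led by HSPA14 (-1.19 ± 0.12) and HSPE1, the mitochondrial co-chaperonin (-1.13 ± 0.16), and 4 fell after adjustment for the ACTB ratio. Of 35 glycolysis and hypoxia genes 7 fell and 3 rose, against 15.2% and 19.0% of all genes. PFKFB3, an activator of glycolysis (-1.02 ± 0.09), and the hexokinase HK2 (-0.64 ± 0.13) were lower, and HIF1A (0.66 ± 0.11) was higher. Of 22 sterol and fatty acid genes 6 fell and 4 rose, again against 15.2% and 19.0% of all genes. HSD17B7 had 584, 604 and 587 in DOX+ cells, against 2453, 2285 and 2667 in DOX- cells (-2.04 ± 0.09), whereas LSS, lanosterol synthase, had 206, 245 and 232 in DOX+ cells, against 69.6, 74.9 and 69.8 in DOX- cells (1.53 ± 0.21). Of 35 amino acid response and tRNA synthetase genes 10 fell and 3 rose, with ATF3 at -0.92 ± 0.09 and TRIB3 at 0.89 ± 0.11, and TRIB3 was also higher in A5M cells at 84 h (1.21). In oxidative phosphorylation 8 of 54 genes rose and 1 fell (17 and 1 when only these 6 arrays entered the fit), and in the proteasome 1 of 32 rose and 6 fell, with no change above 2-fold in either list. With the ACTB ratio as covariate 13 cytoskeletal genes rose and 1 fell, 2 glycolysis and hypoxia genes fell and 1 rose, 2 sterol and fatty acid genes fell and 3 rose, and 8 amino acid genes fell and 1 rose. In the same fit 4 genes of oxidative phosphorylation rose and 0 fell, and 2 proteasome genes rose and 2 fell. In the A5M comparison at 84 h 18 of the 35 glycolysis and hypoxia genes were called lower and 1 higher (median -0.39), with HK2 at -0.46 and PFKFB3 at -0.11. There 17 of the 35 amino acid genes were called higher and 0 lower (median 0.35), and 6 of the 29 heat shock genes higher and 0 lower. With 1 array left out, 2 cytoskeletal genes fell without DOX+ replicate 2, 3 sterol and fatty acid genes fell without DOX+ replicate 1, and 2 proteasome genes rose without DOX- replicate 3.

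At the same time in Su-DHL1 cells 24.6% of all genes were called (13.9% higher and 10.7% lower). Of the 1724 genes that rose in TS cells 932 also rose there (54.1% of the TS list and 73.7% of the Su-DHL1 list), and of the 1384 that fell 796 did (57.5% and 81.7%). The 2 comparisons share no array. In opposite directions 17 genes were called. With TS cells at 84 h the shared genes were 1393 higher (80.8% of the 72 h list and 70.1% of the 84 h list) and 1206 lower (87.1% and 70.4%). The difference between the lines was called in 263 genes (2.89%), 110 with a higher value in TS cells (1.21%) and 153 with a lower one (1.68%). Of the 61 mitosis genes 18 and of the 45 replication genes 13 were lower by this test, and in Su-DHL1 cells the medians were -0.56 and -0.60. ALK itself did not pass for a difference (-0.24 ± 0.15, limma adjusted p = 0.563).

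SPP1 had the largest difference. In TS cells it rose as given above, and in Su-DHL1 cells it had means of 561 ± 40.6 in DOX+ cells and 911 ± 35.0 in DOX- cells (log2 fold change -0.69 ± 0.09), which is a difference of 3.55 ± 0.12 (limma adjusted p = 1.03e-15). S100P, CDA and the Src-family kinase FGR rose in TS cells, by 3.12 ± 0.28, 3.30 ± 0.30 and 2.77 ± 0.16, and had -0.005, 0.41 and 0.01 in Su-DHL1 cells. In TS cells FGR had 779.7, 834 and 671 in DOX+ cells, against 90.7, 92.1 and 127 in DOX- cells. In TS cells S100A9, part of calprotectin, had 2716, 2709.5 and 2598 in DOX+ cells, against 723, 639 and 692 in DOX- cells (1.95 ± 0.15). Its log2 fold change in Su-DHL1 cells was -0.26, a difference of 2.21 ± 0.21, and the phosphatase DUSP4 differed by 1.95 ± 0.34. S100A9 was also called higher in A5M cells with doxycycline at 84 h (0.68). On the other side CCR7 had the largest difference (-2.02 ± 0.20, limma adjusted p = 5.52e-07): in TS cells it had 84.4, 76.0 and 90.2 in DOX+ cells, against 208, 164 and 196 in DOX- cells, and in Su-DHL1 cells it had means of 77.7 in DOX+ and 35.6 in DOX- cells. The decarboxylase DDC, MXD3 and SGK1 fell more in TS cells, with differences of -1.9996 ± 0.35, -1.95 ± 0.28 and -1.89 ± 0.21. In DDC and MXD3 the Su-DHL1 means were all below 30 in signal. F3, tissue factor (-1.91 ± 0.51), and CAV1, caveolin-1 (-2.02 ± 0.53), were lost under 13 and 17 alternatives, and CAV1 was below 5 in signal on every TS array at 72 h.

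**Figure D5:**
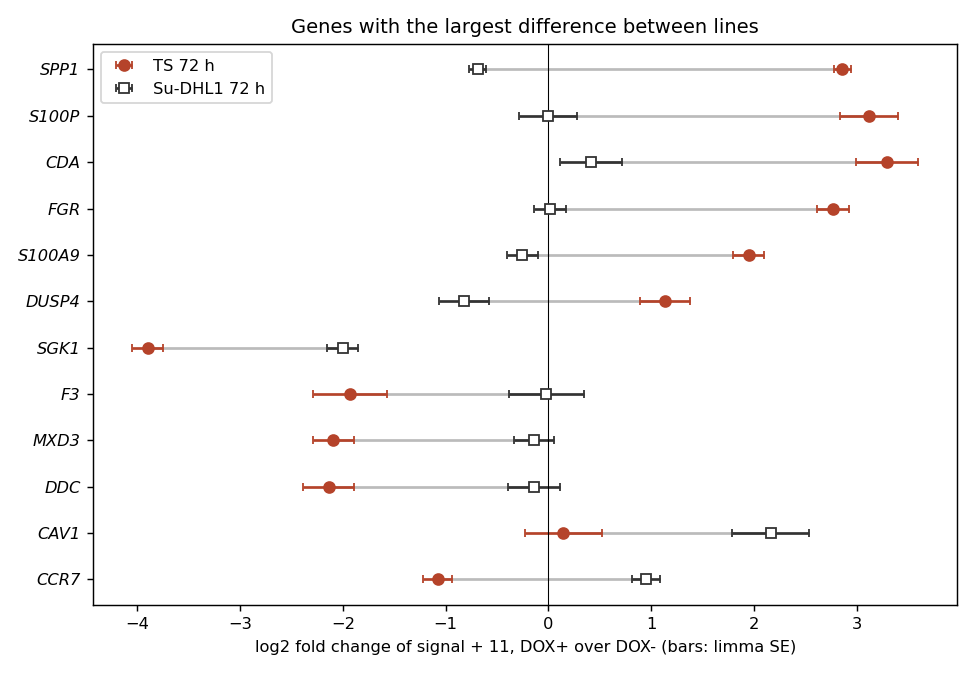
Log2 fold change (DOX+ over DOX-) at 72 h in TS cells (filled circles) and Su-DHL1 cells (open squares) for the 12 genes with the largest differences between the lines by the naming rule; bars are limma's standard error. SPP1 lies at 2.86 in TS cells and -0.69 in Su-DHL1 cells, and CCR7 at -1.08 in TS cells and 0.95 in Su-DHL1 cells.

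Markers of other cell types were measured in the same arrays. Of 13 tested myeloid markers 4 rose (ITGAX, S100A9, S100A8 and CSF1R) and 3 fell (CD163, TREM1 and CSF3R). The number that fell was 1 without DOX+ replicate 1 or without DOX- replicate 1 or 3. With the ACTB ratio as covariate 4 rose and 1 fell, and in the A5M comparison at 84 h 2 were called higher and 1 lower. The summed signal of the 20 genes on the array was 15833 to 17014 in DOX+ cells and 11790 to 12528 in DOX- cells. S100A8 and S100A9 entered this sum with means of 4793 and 2675 in DOX+ cells and 1378 and 685 in DOX- cells. The sum therefore does not show a rise of the list as a whole. S100A8 had 5190.3, 4714 and 4474 in DOX+ cells, against 1314, 1338 and 1482 in DOX- cells (log2 fold change 1.79 ± 0.15, limma adjusted p = 1.5e-09), ITGAX had 206, 109 and 127 in DOX+ cells, against 35.6, 11.1 and 14.0 in DOX- cells (2.37 ± 0.38), and CSF1R had 462, 571 and 438 in DOX+ cells, against 192, 154 and 179 in DOX- cells (1.43 ± 0.15). FCER1G, TREM1 and CD163 had means of 3665, 1504 and 1207 in DOX+ cells and 3462, 1869 and 1983 in DOX- cells. LYZ, CD14 and SPI1, also on the list, stayed near the floor, with means of 1.97, 4.67 and 6.67 in DOX+ cells and 2.10, 4.53 and 4.07 in DOX- cells. Genes given by means alone in this paragraph were chosen after their values were seen. Of 9 tested epithelial and stromal markers 2 rose, ACTA2 (1.08 ± 0.11) and DCN (1.06 ± 0.23), or 3 with that covariate, and the summed signal of the 18 genes was 1321 to 1460 in DOX+ cells and 854 to 1007 in DOX- cells, with EPCAM at a mean of 9.80 in DOX+ cells and 13.2 in DOX- cells and KRT19 at 1.30 in DOX+ cells and 1.70 in DOX- cells. The part of these markers in the results was not tested. Of 6 tested B-cell markers and 3 tested erythroid and stem cell markers limma called 0 (0 also at an unadjusted p below 0.05), and their summed signals were 368 to 437 and 325 to 355 in DOX+ cells and 404 to 484 and 281 to 322 in DOX- cells. MS4A1 (-0.57 ± 0.33), PAX5 (-0.49 ± 0.38), HBB (0.19 ± 0.20) and CD34 (0.13 ± 0.21) had the largest changes, 2 from each list.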

How the data were processed

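The deposited values are intensity, the linear MAS5 signal of 22283 HG-U133A probe sets on 33 arrays, which the authors made with MAS5, per the submitters' processing notes. Its version was not given in the sources used here, nor were its settings, and the trimmed mean of every array, with 2% cut at each end, was 200.06 to 200.08. No present or absent calls were used. Of 22215 probe sets left without 68 controls, 19065 had 1 gene symbol in the platform annotation, 1043 had several and 2107 had none; only the first kind was named. A gene was kept where a probe set was at or above the 40th percentile of signal on 3 or more of the 21 hairpin arrays, and was represented by the probe set with the highest mean. Related genes, such as the HLA genes, may share probe sets. Values were taken as log2(signal + 11) and fitted over 21 arrays of 7 hairpin groups with limma 3.58.1 in R 4.3.3 (lmFit and eBayes with trend), with Benjamini-Hochberg adjustment over 9097 genes and a threshold of 0.05. The fit had 14 residual degrees of freedom. Differences between times and lines were contrasts of the same fit. In data simulated for this comparison over 9097 genes, limma recovered 85% of 100 genes changed by a log2 fold of 1 and 99% of 100 changed by 2, and 14 of its 198 calls were false. Only these genes were changed, in the 72 h DOX+ group, whereas 3108 were called in the data. The simulated noise was normal and independent, with no shift shared across an array. Recovery and the share of false calls in the data may therefore differ. Figures used Python 3.11.15 and matplotlib 3.10.9, and the exact permutation test used SciPy 1.17.1.

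Named genes were ALK, NPM1, CEBPB and BCL2A1, the 15 highest and 15 lowest called genes without overlap, the 6 highest and 6 lowest called for each difference, and up to 4 called members of each list with the largest changes (2 members where none was called). The members and lists were chosen with earlier results of these data known. Replicate numbers did not pair the samples: deviations of same-numbered DOX+ and DOX- arrays correlated at 0.01, 0.03 and 0.07. Alternatives were other pseudocounts, filters, quantile normalization, a fit on the compared groups alone, every probe set, no trend, a replicate block, the ACTB ratio as a covariate and each replicate left out. The number of arrays limits the precision.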

Additional observations from a re-analysis of the deposited data

Results flagged for a closer look

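Of the 155 named genes, those below are listed because their response, the log2 fold change of DOX+ over DOX-, differed between TS cells at 72 h and another setting by limma's test of the difference itself (adjusted p below 0.05 over all genes). Every value is the response in TS cells at 72 h minus the response in the other setting. No explanation was tested for any of them.

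Against TS cells at 84 h, the response at 72 h was higher in the following genes. The largest values were those of CENPM (2.39), HELLS (2.13), CENPE (1.95), ZNRD2 (1.73), ERCC6L (1.62), NCAPG (1.48), GINS2 (1.46), TYMS (1.33), BIRC5 (1.15) and RRM2 (1.07). Smaller values were those of RAD51AP1 (1.02), CENPU (0.99), CCNA2 (0.98), GINS1 (0.90), SGK1 (0.85), CCR7 (0.83), MKI67 (0.70), UPK1B (0.61) and MYC (0.54). The response at 72 h was lower than at 84 h in PLBD1 (-2.03), S100A4 (-2.0), SERPINB4 (-1.57), FZD1 (-1.26), YKT6 (-1.19), ATP8A2 (-1.04), SPP1 (-0.96), HLA-DRB1 (-0.88), TXNIP (-0.76), CDKN1A (-0.76), PLSCR1 (-0.61) and PFKFB3 (-0.56).

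Against Su-DHL1 cells at 72 h, the response of TS cells was higher in SPP1 (3.55), S100P (3.12), CDA (2.88), FGR (2.76), S100A9 (2.21), DUSP4 (1.95), DBNDD1 (1.94), CLIC3 (1.93), ASGR2 (1.86), CD52 (1.75), S100A8 (1.74) and CORO1A (1.63). It was also higher, by less, in HLA-DRB1 (1.61), DUSP6 (1.54), SPRY4 (1.21), TUBA1A (1.17), CD74 (1.09), LAPTM5 (0.96), SIRPG (0.91), CDKN1A (0.87), CAPG (0.85), HLA-DPA1 (0.81) and MYH9 (0.72). The response of TS cells was lower than that of Su-DHL1 cells in CCR7 (-2.02), CAV1 (-2.02), DDC (-2.0), MXD3 (-1.95), F3 (-1.91), SGK1 (-1.90), CDC25A (-1.80), SERPINB4 (-1.75), GINS2 (-1.49), DRC9 (-1.36) and FRY (-1.28). Next in size were MCM2 (-1.27), GZMB (-1.23), GAS1 (-1.22), EXO1 (-1.11), UPK1B (-1.09), NFKBIA (-1.03), GINS1 (-1.02), BARD1 (-0.98), BIRC5 (-0.97), ZWINT (-0.97) and HSD17B7 (-0.91). The smallest lower values were those of IL2RA (-0.90), CCNA2 (-0.86), MKI67 (-0.85), TK1 (-0.78), LEF1 (-0.78), TYMS (-0.77), CENPU (-0.75), ICOS (-0.74), TNFRSF8 (-0.73) and PLSCR1 (-0.50). The calls of ZNRD2, PLBD1, YKT6 and ATP8A2 against 84 h and of CAV1 and F3 against Su-DHL1 cells were lost under 8 or more of the alternatives tried, and those of SERPINB4 against 84 h and DUSP4 against Su-DHL1 cells under 1. Only the 24 differences named by the rule on the largest differences were tried under the alternatives. All others listed here were not, and some lay near the threshold. Against 84 h limma's adjusted p was 0.0495 for SGK1, 0.0476 for GINS2 and 0.0398 for UPK1B.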

How the results depend on the processing

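The 3108 genes called at 72 h became 4752 probe sets when every probe set was tested and 1459 genes with the ACTB ratio as a covariate, and 2630 to 2758 with 1 replicate left out. The 116 genes that differed between 72 h and 84 h became 76 without the mean-variance trend and 78 to 122 with 1 replicate left out. The 263 that differed from Su-DHL1 cells became 415 in a fit of the compared groups alone, 418 probe sets when every probe set was tested, 95 with the ACTB ratio as a covariate, and 202 to 258 with 1 replicate left out. ALK lay between -2.56 and -2.35 with 1 replicate left out. With the ACTB ratio as a covariate, 13 STAT3 targets, 17 genes of MYC and ribosome production and 4 heat shock genes fell, and 5 p53 targets, 9 interferon genes and 15 lysosomal genes rose; the cause was not tested, and since the ratio did not overlap between the groups, the covariate shares its information with doxycycline. Of the 155 named genes, 18 lost their call under it and 5 changed sign: CENPE (0.059), FZD1 (-0.019), YKT6 (-0.33), MAPK3 (-0.062) and HBB (-0.048). FZD1 was also -0.041 after quantile normalization, ATP8A2 lay between -0.18 without DOX+ replicate 1 and 0.070 without DOX- replicate 2, and CAV1 was -0.078 without a filter. With 1 replicate left out, replication genes that fell numbered 41 to 42, deoxynucleotide genes 19 to 20, G1/S regulators 11 to 12, mitosis genes 55 to 57, DNA repair genes 20, STAT3 targets 19 to 20, genes of MYC and ribosome production 26, amino acid genes 8 to 10 and heat shock genes 9 to 14. Class II genes that rose numbered 10, receptors and costimulatory genes 12, ALCL markers 11 to 13, p53 targets 11 to 12, interferon genes 14 to 17, lysosomal genes 23 to 26 and cytoskeletal genes 15 to 17. A replicate block, although the numbers share only a number, gave 2972 genes called at 72 h, 84 that differed between the times and 220 that differed from Su-DHL1 cells, with ALK at -2.44, 42 replication and 57 mitosis genes lower and 10 class II genes higher. Of 70 list counts the ACTB covariate moved 37 by more than 1.5 times, quantile normalization 6, the fit of the compared groups 4, no filter 1 and no mean-variance trend 1. Signal near the bottom of the scale limits the folds of genes such as CDA, SERPINB4 and FCGR2A.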
